A study of Homo sapiens with 12 samples.

Results

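Fatty acid binding proteins (FABPs) are small cytosolic carriers of long-chain fatty acids. Their transcripts, and those of 3 other intracellular lipid carriers, were followed in Huh7 cells, a human hepatocellular carcinoma line, after stable lentiviral knockdown of FAM111B. The 10 genes were FABP1 to FABP7, DBI, ACBD3 and SCP2, found by gene name among the 60666 genes listed for Huh7. They were selected on their levels in this same contrast, with FABP3 picked out against the liver form FABP1, so the values of these 10 genes are a description and carry no test. RNA sequencing covered 3 control libraries and 3 libraries expressing one short hairpin RNA against FAM111B (shFAM111B), all from cells grown in high-glucose DMEM. The study speaks of a control group and lists control sequences among its lentiviral plasmids, without giving the sequence. Its infected cells were selected with puromycin. The labels do not say whether the 3 libraries of a group came from separate cultures, so the spread and the p-values measure the difference between these libraries, which may be technical. Values are TPM, transcript abundances relative to the whole library, which are already divided by transcript length and can be compared between genes. Of the 10 genes, 6 reached at least 1 TPM in at least 3 libraries and entered the fit with 14394 genes in all, and 4 did not (FABP2, FABP4, FABP6 and FABP7).

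FABPs share a barrel-shaped fold that encloses the fatty acid. FABP1 is the abundant form of hepatocytes and also binds bile acids and haem, FABP3 is the form of heart and skeletal muscle, and FABP5 is the epidermal form with a broad distribution. DBI, also called acyl-CoA binding protein, holds fatty acids after their activation to acyl-CoA esters. ACBD3 carries an acyl-CoA binding domain but is known mainly as a Golgi scaffold protein, and SCP2 encodes the peroxisomal thiolase SCPx and sterol carrier protein 2 from one gene.

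The 19-base target of the hairpin is shown because it sets which transcript is silenced. It matched FAM111B and no other gene among 206694 GENCODE v29 transcripts.

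shFAM111B target: ctgcctagtgattctcatt

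No transcript of the 10 genes held it. On the sense strand, the only one compared for partial matches, the closest stretch differed at 4 bases in ACBD3 and at 5 in FABP2. It differed at 6 in FABP7 and SCP2, at 7 in FABP1, FABP4, FABP5 and DBI, and at 9 in FABP3 and FABP6.

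The 250 bases before the RefSeq start (GRCh38.p14) are shown for FABP3 and FABP1, the pair the values turn on, and for ACBD3, the member whose level was lower by the widest margin. All 3 lie on the minus strand and are written 5′ to 3′. Capitals mark matches, on either strand, to TATAAA (the core of a TATA box), to AGGTCA (a half-site of nuclear receptors such as PPARs and HNF4A), to GTTAAT (a half-site of HNF1 factors), to GGGCGG (a GC box) and to CACGTG (an E-box), letters chosen after these promoters had been read. FABP3 lies at chr1:31373077-31373326, FABP1 at chr2:88128063-88128312 and ACBD3 at chr1:226186742-226186991. The FABP3 start lies inside the span that GENCODE v29 gives this gene, not at its end.

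FABP3: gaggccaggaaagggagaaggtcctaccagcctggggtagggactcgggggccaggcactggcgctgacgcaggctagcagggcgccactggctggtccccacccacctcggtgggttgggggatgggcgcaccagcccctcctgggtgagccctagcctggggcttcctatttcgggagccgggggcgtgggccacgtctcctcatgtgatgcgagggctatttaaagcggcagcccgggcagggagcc

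FABP1: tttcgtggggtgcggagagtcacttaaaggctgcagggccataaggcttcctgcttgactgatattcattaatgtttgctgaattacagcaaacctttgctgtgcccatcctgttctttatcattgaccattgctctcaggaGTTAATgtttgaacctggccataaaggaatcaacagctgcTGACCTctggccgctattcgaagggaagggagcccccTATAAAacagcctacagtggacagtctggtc

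ACBD3: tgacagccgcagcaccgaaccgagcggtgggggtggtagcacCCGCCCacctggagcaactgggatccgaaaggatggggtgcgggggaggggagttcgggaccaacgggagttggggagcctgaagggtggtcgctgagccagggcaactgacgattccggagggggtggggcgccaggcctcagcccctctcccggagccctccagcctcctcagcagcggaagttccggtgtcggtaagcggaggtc

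The FABP3 stretch was 69.2% G and C and held none of the searched letters. The FABP1 stretch was 48% G and C. It held TATAAA 31 bases before the start, the reverse of AGGTCA at 68 bases and GTTAAT at 108 bases. Over 35116 promoters, each taken from 250 bases before to 50 bases after the start, TATAAA was present in 11.5%, AGGTCA in 13.8% and GTTAAT in 6.88%. ACBD3 (68.8% G and C) held the reverse of GGGCGG at 208 bases, letters present in 45% of all promoters. Across its start, from 5 bases before it, ran 2 copies of AGGTCA with 1 base between them, an arrangement found in 8 promoters (0.0228%). Such letter matches are descriptions and were not tied to binding of any factor. The RefSeq set held a promoter for 8 of the 10 genes.

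FAM111B itself (chr11:59107185-59127410) measured 7.84, 8.29 and 7.99 TPM in the control libraries and 0.96, 1.13 and 0.84 TPM in the shFAM111B libraries. The groups did not overlap, and the mean fell from 8.04 ± 0.229 to 0.977 ± 0.146 TPM (SD, n = 3 each). On the scale of log2(TPM + 1), on which all log2 differences are given as shFAM111B minus control, this was -2.20 with a standard error of 0.113 (limma, Benjamini-Hochberg adjusted p = 6.09e-06). The 10 hepatocyte markers were all present, and they did not move one way. Of these, 3 were called higher (AFP, APOA1 and TTR), 2 were called lower (APOB and HNF4A) and 5 did not reach a fold of 2. The median log2 difference was -0.42. The sum was 27950 to 28520 TPM in control and 41570 to 46540 TPM in shFAM111B libraries. AFP, a fetal liver protein, went from 7274 ± 200 to 23060 ± 1726 TPM, while ALB (albumin) was at 6444 ± 41.1 and 4161 ± 185 TPM. The depth of the libraries is unknown, since TPM do not keep it. Transcripts of the mitochondrial chromosome took 19.7% to 20.2% of TPM in control and 7.37% to 8.06% in shFAM111B libraries, and the median tested gene differed by -0.36. For the 6 tested members the difference relative to that median gene is therefore given as well.

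FABP1 was the most abundant of the 10 genes, FABP3 stood at no more than 1.37 TPM in control cells and 21.72 TPM or more in shFAM111B cells, and SCP2 and ACBD3 were lower in shFAM111B cells. In all 6 tested members the groups did not overlap, in FABP1, FABP3, FABP5 and DBI with the shFAM111B libraries higher and in ACBD3 and SCP2 with them lower. The groups also did not overlap in 75.2% of all 14394 tested genes. At a fold of at least 2 and an adjusted p under 0.05, 1 member was called higher (FABP3), against 6.77% of tested genes, and 2 were called lower (ACBD3 and SCP2), against 23.7%. FABP3 passed the filter only with its shFAM111B libraries, since its control library 1 was at 0.61 TPM. Because the contrast chose the members, nothing is read from these counts.

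**Figure D1:**
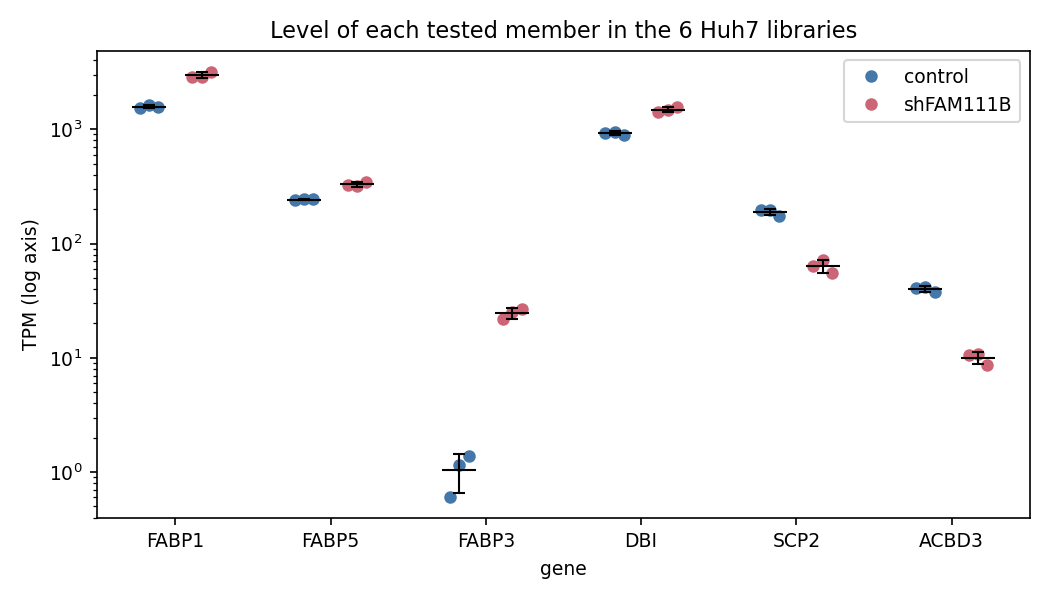
Level in TPM (log axis) of the 6 tested members in each library, with blue points for control and red points for shFAM111B. Black bars give the mean and SD of 3 libraries. FABP3 passes ACBD3, with 0.61 to 1.37 TPM in control and 21.72 to 26.74 TPM in shFAM111B libraries, while FABP1 is the highest gene in all 6.

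FABP1 (ENSG00000163586, chr2:88122982-88128116) measured 1547.91, 1624.87 and 1553.62 TPM in control libraries and 2879.04, 2884.16 and 3171.24 TPM in shFAM111B libraries. Every shFAM111B library was higher than every control library. The means were 1575 ± 42.9 and 2978 ± 167 TPM, a ratio of 1.89, and the log2 difference was 0.92 with a standard error of 0.0524, or 1.28 relative to the median gene. Among the tested genes ranked by level, FABP1 stood at place 77 in control and 44 in shFAM111B cells.

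FABP3 (ENSG00000121769, chr1:31365625-31376850) measured 0.61, 1.15 and 1.37 TPM in control libraries and 21.72, 24.94 and 26.74 TPM in shFAM111B libraries. Its lowest shFAM111B library was far above its highest control library. The means were 1.04 ± 0.391 and 24.5 ± 2.54 TPM, a ratio of 23.5. The log2 difference was 3.65 with a standard error of 0.167, or 4.02 relative to the median gene. The former is 12.6-fold on that scale, since the pseudocount of 1 TPM compresses the change of a gene near 1 TPM. Ranked by difference, FABP3 stood 43rd from the top of 14394 genes. Ranked by level it moved from place 13710 to place 3812, so even in shFAM111B cells it was a gene of moderate level and was 0.674% to 0.772% of the summed TPM of FABP1 to FABP7. No other gene overlaps FABP3 in GENCODE v29.

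FABP5 (ENSG00000164687, chr8:81280363-81284777) measured 239.16, 245.72 and 243.01 TPM in control libraries and 323.16, 319.87 and 348.73 TPM in shFAM111B libraries. The shFAM111B libraries were higher, by a smaller margin than for FABP1. The means were 243 ± 3.30 and 331 ± 15.8 TPM, a ratio of 1.36, and the log2 difference was 0.44 with a standard error of 0.0472, or 0.81 relative to the median gene. This value is uncertain, because FABP5 has near-identical processed pseudogenes. Of the 802 stretches of 50 bases in its principal transcript, 372 (46.4%) also occurred in transcripts of 8 other genes, whereas none of those of the other 9 members did. The pseudogene FABP5P7 (ENSG00000234964, chr11:59781318-59781722) alone shared 44.4%. FABP5P7 was listed at 49.73, 90.15 and 80.47 TPM in control and at 184.86, 183.31 and 228.76 TPM in shFAM111B libraries. Its listed level differed by 1.46 on the log2 scale (SE 0.217), given as a description like that of FABP5. Its share of FABP5 and FABP5P7 together was 17.2%, 26.8% and 24.9% in control and 36.4%, 36.4% and 39.6% in shFAM111B libraries. How the reads were divided between the parent gene and the copy could not be told from TPM. Summed over FABP5 and its 15 listed pseudogenes, the level was 318 ± 25.3 TPM in control and 531 ± 41.8 TPM in shFAM111B libraries, a log2 difference of 0.74 (a sum added after the values were seen).

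The other FABPs were at or near 0. FABP2, the intestinal form, and FABP4, the adipocyte form, were listed at 0 in all 6 libraries. FABP6, the ileal bile acid carrier, was listed at 0, 0 and 0.40 TPM in control and at 0.27, 0 and 0.17 TPM in shFAM111B libraries, and its groups overlapped. FABP7, the brain form, was listed at 0.04 TPM in control library 3 and at 0 in the other 5. At unknown depth these values do not set an upper limit on the transcripts.

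Over FABP1 to FABP7, the summed level was 1819 ± 45.7 TPM in control and 3333 ± 185 TPM in shFAM111B cells, a ratio of 1.83. FABP1 made up 86.4% to 86.8% of it in control and 89.3% to 89.4% in shFAM111B libraries. FABP5 made up 13.1% to 13.5% and then 9.83% to 10.0%. FABP3 was the least abundant of the 3 in both groups, with 0.0341% to 0.0762% in control libraries. The 7 transcripts are built alike, with 4 exons each and 127 to 135 codons without the stop. Coding identity to FABP3 was 69.9% for FABP7, 65.1% for FABP4, 61.7% for FABP5 and 58.8% for FABP1, and over all 21 pairs it ran from 51.7% to 69.9%.

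DBI (ENSG00000155368, chr2:119366921-119372560) measured 926.1, 953.94 and 884.91 TPM in control libraries and 1424.99, 1469.35 and 1565.89 TPM in shFAM111B libraries. It was the next most abundant member after FABP1, and its shFAM111B libraries were higher. The means were 922 ± 34.7 and 1487 ± 72.0 TPM, a ratio of 1.61, with a log2 difference of 0.69 (SE 0.0518), or 1.05 relative to the median gene.

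ACBD3 (ENSG00000182827, chr1:226144679-226186730) measured 40.72, 41.87 and 37.68 TPM in control libraries and 10.6, 10.77 and 8.61 TPM in shFAM111B libraries. Each shFAM111B library was far below each control library. The mean was 40.1 ± 2.17 TPM in control and 9.99 ± 1.20 TPM in shFAM111B cells, 4.01-fold lower, with a log2 difference of -1.91 (SE 0.0984), or -1.55 relative to the median gene. Ranked by difference, it stood 532nd from the bottom of 14394 genes. An antisense gene, ACBD3-AS1, overlaps ACBD3 by 7069 bases. It was listed at 0.56, 1.46 and 0.79 TPM in control libraries and at 0 in shFAM111B libraries, and was not tested.

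SCP2 (ENSG00000116171, chr1:52927229-53051703) measured 195.95, 198.0 and 175.5 TPM in control libraries and 64.18, 71.05 and 55.42 TPM in shFAM111B libraries. All shFAM111B libraries were lower. The means were 190 ± 12.4 and 63.6 ± 7.83 TPM, 2.99-fold lower in shFAM111B cells, with a log2 difference of -1.57 (SE 0.0972), or -1.21 relative to the median gene. SCP2 is the most divided of these genes, with 16 exons in its principal transcript, and the table gives 1 value for SCPx and sterol carrier protein 2 together.

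In control cells the order of levels was FABP1, DBI, FABP5, SCP2, ACBD3 and FABP3, and no neighbours in it overlapped over the 3 libraries. In shFAM111B cells the order was the same except that FABP3 stood above ACBD3, again with no overlap between neighbours. FABP6 and FABP7, below them, overlapped in both groups.

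Ratios taken within a library do not move with its scaling. FABP3 was 0.0394%, 0.0708% and 0.0882% of FABP1 in control libraries and 0.754%, 0.865% and 0.843% in shFAM111B libraries. The groups did not overlap, and the ratio was 13.1-fold higher in shFAM111B cells (log2 3.71). Against FABP5, FABP3 moved from 0.255%, 0.468% and 0.564% to 6.72%, 7.8% and 7.67%, 18.1-fold. The abundant carriers kept closer to each other. DBI was 57.0% to 59.8% of FABP1 in control and 49.4% to 50.9% in shFAM111B libraries, a log2 change of -0.23, and FABP5 was 15.1% to 15.6% and then 11.0% to 11.2%. SCP2 moved apart from them, from 11.3% to 12.7% of FABP1 in control to 1.75% to 2.46%, 5.66-fold lower. The acyl-CoA binding pair also separated, with ACBD3 at 4.26% to 4.4% of DBI in control and 0.55% to 0.744% in shFAM111B libraries, 6.5-fold lower. SCP2 and ACBD3 have longer transcripts than FABP1 and DBI, and these ratios were not corrected for the length trend given below.

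**Figure D2:**
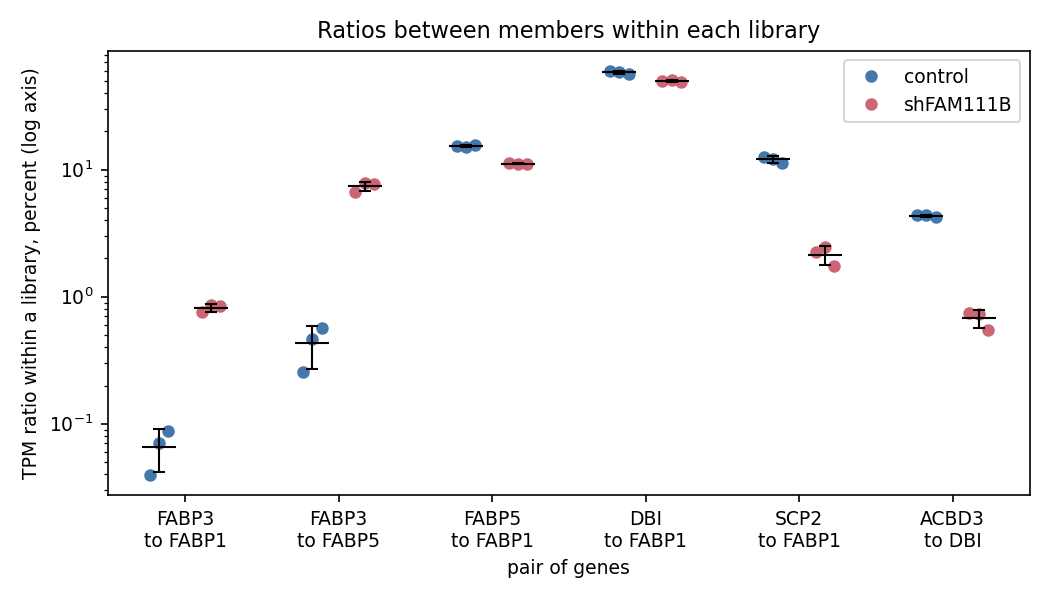
TPM of one member as a percentage of another in the same library (log axis), with blue points for control, red points for shFAM111B and black bars for the mean and SD of 3 libraries. FABP3 to FABP1 and FABP3 to FABP5 are higher in all shFAM111B libraries, and SCP2 to FABP1 and ACBD3 to DBI are lower, while DBI to FABP1 moves from 57.0% to 59.8% down to 49.4% to 50.9%.

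Transcript length moved with the difference across the whole table, and the members differ in length. Of tested protein-coding genes whose principal transcript was at most 1000 nt (700 genes), the median log2 difference was 0.62 and 24.4% were called higher. Between 2000 and 4000 nt (4719 genes) the median was -0.45 and 22.9% were called lower, and above 8000 nt (833 genes) it was -0.98 and 46.5% were called lower. FABP1 (555 nt), DBI (637 nt), FABP3 (725 nt) and FABP5 (851 nt) belong to the shortest class, and SCP2 (2811 nt) and ACBD3 (3573 nt) to the third. Within the 700 short transcripts, FABP3 ranked 2nd from the top, FABP1 203rd, DBI 310th and FABP5 420th. FABP5 was thus below its class median and DBI near it. Within the 4719 transcripts of the third class, ACBD3 ranked 110th and SCP2 295th from the bottom. With the trend on transcript length and mean level removed by loess, the log2 difference was 2.85 for FABP3 and 0.25 for FABP1. DBI was at -0.0797 and FABP5 at -0.38, so these 2 changed sign. SCP2 was at -1.68 and ACBD3 at -1.65. The median gene of that fit stood at -0.43, relative to which DBI was at 0.35 and FABP5 at 0.05. The part of length in these values was not tested beyond that fit.

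Of all genes called, 22.2% were called higher here. That share was 52.9% under median-of-ratios scaling, 49.7% under upper-quartile scaling, 47.5% under quantile normalization, 66.4% with the library medians subtracted and 11.7% with only nuclear protein-coding genes kept. Under median-of-ratios or upper-quartile scaling, or with the library medians subtracted, FABP1 and DBI also passed a fold of 2, so that 3 members were at least 2-fold higher instead of 1, and 2 (ACBD3 and SCP2) were lower in every setting. FABP3 ranged from 2.85 to 4.49 over all settings, FABP1 from 0.25 to 1.45, SCP2 from -1.70 to -1.04 and ACBD3 from -2.05 to -1.37.

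**Figure D3:**
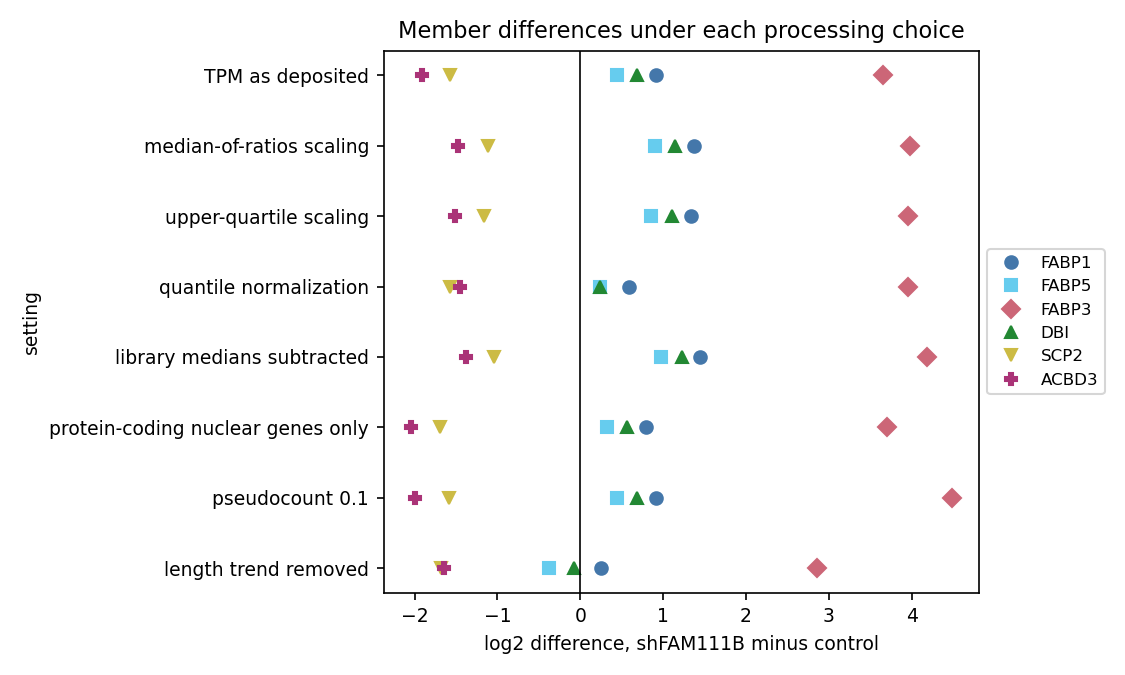
Log2 difference (shFAM111B minus control) of the 6 tested members, one symbol each, with the deposited TPM and with 7 other processing choices. FABP3 stays at 2.85 or more and ACBD3 at -1.37 or less in every row, and DBI and FABP5 cross 0 with the length trend removed.

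The other genes of fatty acid handling were taken from lists of known roles, counted against 6.77% of all tested genes called higher and 23.7% called lower. The lists were drawn up with earlier results of these data known. A gene counts here as risen or fallen only if called, so changes of less than 2-fold count as neither. Of all 14394 tested genes, 10665 had an unadjusted limma p under 0.05. Among other intracellular lipid binding proteins, 2 of 5 tested rose and none fell, with a median of 0.85 against -0.36 for all tested genes. The 5 tested were retinoid-binding relatives of FABPs. RBP7, not called, entered the fit only through its shFAM111B libraries (1.2 to 2.29 TPM, control at most 0.77), so it could only come out higher. CRABP2, also not called and itself the median gene of this list, passed the filter only with its shFAM111B libraries. It was at 1.36 to 3.25 TPM there and at 0.41 to 1.07 TPM in control libraries. RBP2, the intestinal retinol carrier, rose from 47.97, 69.13 and 41.47 TPM to 281.65, 279.47 and 336.83 TPM (log2 difference 2.51, SE 0.182, limma adjusted p = 2.16e-05). Of the same list, FABP9, PMP2 and CRABP1 were at 0 throughout. FABP12 was listed at 0.25 TPM in control library 1, at 0.15 TPM in shFAM111B library 1 and otherwise at 0. Among other acyl-CoA binding domain proteins, 0 of 4 rose and 2 fell, with a median of -0.69. ACBD5, which tethers peroxisomes to the endoplasmic reticulum, fell from 27.9 ± 3.01 to 7.71 ± 0.456 TPM, and ACBD6 was the other.

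Of genes for fatty acid uptake and activation, 1 of 10 tested rose and 4 fell (median -0.53). SLC27A3, an acyl-CoA synthetase of the fatty acid transport family, rose from 3.90 ± 1.09 to 15.0 ± 5.64 TPM. The activating enzyme ACSL1 fell from 44.6 ± 5.26 to 8.96 ± 1.33 TPM, and ACSL4, ACSL3 and CAV1 also fell. Of PPAR receptors and liver regulators, which include factors known to act on FABP genes, 0 of 10 tested were called higher and 2 lower (median -0.71). PPARG, the fat-cell PPAR, fell from 38.7 ± 1.08 to 14.4 ± 1.66 TPM, and HNF4A, a hepatocyte regulator, fell by 1.25 on the log2 scale. PPARA, the liver PPAR, was at 4.70 ± 0.475 and 1.90 ± 0.579 TPM and did not reach a fold of 2 on that scale.

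Of 16 tested PPAR target genes, 0 were called higher and 2 lower (median -0.21). The 2 were CPT1A, the gate of mitochondrial fatty acid entry, and ACADM, a dehydrogenase of β-oxidation. CPT1A fell from 20.4 ± 1.48 to 3.47 ± 0.258 TPM (log2 difference -2.26, SE 0.0955). Of 14 tested genes of lipid droplets and triglyceride handling, 2 were called higher and 1 lower (median -0.30). MTTP, which loads lipid onto apolipoprotein B, rose from 47.5 ± 0.0404 to 121.5 ± 5.64 TPM, DGAT1, a triglyceride synthase, rose by 1.23, and PLIN5, a droplet coat protein, fell by 1.34 on the log2 scale. With no limit on the fold and adjusted p under 0.05, PPAR receptors and liver regulators had 1 higher and 9 lower genes. PPAR targets had 4 higher and 7 lower, and lipid droplet genes 3 and 7. Uptake and activation had 1 and 6, other acyl-CoA binding proteins 0 and 3. Other lipid binding proteins had 4 higher, RBP7 and CRABP2 among them, and 0 lower. The counts of called genes depended on scaling. Under median-of-ratios, upper-quartile or quantile scaling or with library medians subtracted, 2 genes of uptake and activation were lower instead of 4, and 1 other acyl-CoA binding gene was lower instead of 2, as it also was without control library 3 or shFAM111B library 2. In the same 4 settings, 3 or 4 other lipid binding proteins and 1 to 4 PPAR target genes were higher, 1 PPAR target gene was lower, and 3 genes of lipid droplets were higher. No PPAR receptor or liver regulator was called lower, except 1 under quantile scaling. No gene of lipid droplets was called lower, except 1 under upper-quartile scaling. In those settings other than quantile scaling, 1 PPAR receptor or liver regulator was higher.

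**Figure D4:**
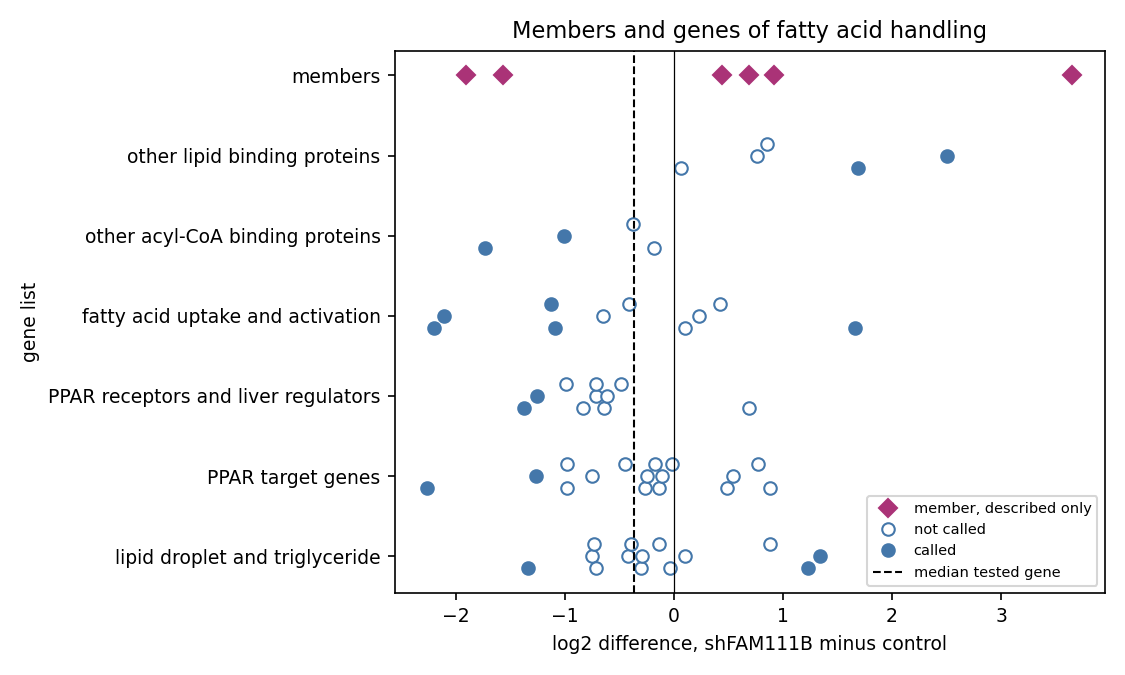
Log2 difference (shFAM111B minus control) of the tested members, shown as diamonds with no test, and of the tested genes of 6 lists, filled where called at a fold of 2 and adjusted p under 0.05. The dashed line is the median tested gene at -0.36. FABP3 at 3.65 lies to the right of every listed gene, and RBP2 at 2.51 is next.

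Markers of the other tissues that use these carriers were checked beside FABP3. For striated muscle, 1 of 9 markers was tested (ACTA1, higher). ACTA1 reached 1 TPM only in shFAM111B libraries (2.76 to 3.87 TPM, control at most 0.47), so it could only come out higher. The summed level was 0.61 to 0.80 TPM in control and 3.58 to 4.44 TPM in shFAM111B libraries, in the latter mostly ACTA1. The defining genes MYH6, MYH7 and DES were at 0. For enterocytes, 4 of 9 were tested, with APOA4 and CDX2 higher and VIL1 lower. SI, tested but not called, entered the fit only through its shFAM111B libraries. The enterocyte sum was 109.4 to 120.5 TPM in control and 125.1 to 132.3 TPM in shFAM111B libraries, with CDX1 and FABP2 at 0. It joins opposite moves, with VIL1 at means of 98.85 TPM in control and 47.7 TPM in shFAM111B libraries. CDX2 was at 11.85 and 48.53 TPM and APOA4 at 2.60 and 28.4 TPM. For adipocytes, 1 of 6 was tested (CIDEC, also a listed lipid droplet gene, not called), with LPL and FABP4 at 0. The adipocyte sum was 9.56 to 11.3 and 17.33 to 21.08 TPM, mostly CIDEC (means 9.75 and 18.82 TPM). The macrophage sum was 15.13 to 18.58 and 21.88 to 23.58 TPM, mostly CD68 (means 16.3 and 22.6 TPM), with C1QA, C1QB and CD163 at 0. The neural progenitor and glia sum was 83.19 to 97.75 and 80.4 to 83.61 TPM, mostly NES (means 81.4 and 76.5 TPM), with S100B at 0.

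The protein-coding genes whose profile over the 6 libraries was most like that of FABP3, among 7044 with a mean of at least 10 TPM, were SPSB2 (Pearson r = 0.999), PSMA5, LAMTOR5, VIRMA and CCDC12. Their differences were smaller than that of FABP3, from 0.78 for LAMTOR5 to 1.43 for SPSB2. With 6 libraries in 2 groups, r is set mainly by the gap between the groups, and 225 genes passed 0.99.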

How the data were processed

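Poly(A)-selected RNA of 3 Huh7 control and 3 shFAM111B libraries was sequenced. The authors deposited TPM per gene. The submitters' processing notes name RSEM, DESeq2 and hg38, without role or version. The deposited group means and the authors' own comparison (fold, log2 fold, p-values) were not used. The Hep3B libraries were not analysed here. TPM keep no depth and are relative, so no count test was run. Genes that reached 1 TPM in 3 or more libraries were fitted with limma 3.58.1 (lmFit, eBayes with trend) in R 4.3.3 on log2(TPM + 1), with Benjamini-Hochberg adjustment over 14394 genes, and called at a fold of at least 2 and adjusted p under 0.05. An exact permutation test of 3 against 3 libraries cannot go below p = 0.1. The fit was tested on simulated data.

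Members, lists and tests were chosen with earlier results of these data known. Named besides the members are FAM111B, each list's called genes with the widest rise and fall, and the 5 genes most like FABP3, and further called list genes were named after their values were seen. The values of 1 called list gene are not reported here. Over the tested genes, the deviations of same-numbered libraries from their group means correlated at 0.054, 0.035 and 0.091, and libraries were not paired. Gene positions are from GENCODE v29 (GRCh38), which held 96.3% of the listed genes, and promoters from RefSeq. Alternatives covered scaling, pseudocount, filters, length, a replicate block and each library left out.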

Additional observations from a re-analysis of the deposited data

How the results depend on the processing

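The count of genes called higher (974) and lower (3406) depended on scaling. Higher calls numbered 2016 and lower calls 1792 under median-of-ratios scaling, 1884 and 1905 under upper-quartile scaling, 1673 and 1846 under quantile normalization, and 2574 and 1305 with library medians subtracted, a setting added after seeing the data. With only nuclear protein-coding genes, 506 were called higher. The median of all genes was 0.03, -0.01, -0.03, 0.17 and -0.56 in these settings, in the same order, against -0.36. The FABP3 difference (3.65) was 3.98, 3.95 and 3.95 after the first 3 scalings, 4.19 with library medians subtracted, 4.49 with a pseudocount of 0.1 and 2.85 with the length trend removed. The FABP3 to FABP1 change (3.71) was 2.74 with a pseudocount of 1 in both genes. With the length trend removed, FABP5 was at -0.38 and DBI at -0.0797, which was 0.05 and 0.35 relative to that fit's median gene. Beyond what each setting's construction changes, the cause was not tested.

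Leaving out each library in turn gave 904 to 1073 higher and 3360 to 3545 lower calls, an FABP3 difference of 3.49 to 3.77 and an FABP3 to FABP1 change of 3.38 to 3.96. FABP1 ran from 0.87 to 0.94, FABP5 from 0.40 to 0.47, DBI from 0.65 to 0.72, SCP2 from -1.65 to -1.48 and ACBD3 from -1.96 to -1.81. With the replicate number as a block, 983 genes were called higher and 3402 lower, and the FABP3 difference was 3.65 with a standard error of 0.116. The labels share only a number, and the deviations of same-numbered libraries from their group means correlated at no more than 0.091. The main limits are the unknown depth, a hairpin of 1 sequence, and reads of FABP5 shared with its pseudogenes.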
